A study of Mus musculus with 6 samples.

Results

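The genes described here encode the facilitative glucose transporters Slc2a1, Slc2a2 and Slc2a3, the hexokinases Hk1, Hk2 and Hk3, the glucose-6-phosphatase catalytic subunits G6pc2 and G6pc3, and Gckr, a regulatory protein of glucose phosphorylation best known from liver. They were chosen by gene name among the probes that are not array controls. The 9 genes had 11 probes, of 39429 probes and 31829 gene names on the array, and all 9 were among the 22775 gene names that could be tested. The islets came from 6-week-old male mice in which tamoxifen switched on Pdx1-CreERTM, a recombinase driven by the Pdx1 promoter and so active in Pdx1-expressing cells. Mutants were Nkx6.1fl/-;Pdx1-CreERTM, in which the second allele was null, and controls were Nkx6.1fl/+;Pdx1-CreERTM littermates, which kept 1 allele that the recombinase could not reach. All mice, controls included, carried the recombinase and had been given tamoxifen 4 times (2 mg for each 25 g of mouse) between 4 and 6 weeks of age, on a mixed strain background. Each group had 3 RNA samples (A, B and C), each pooled from 2 pancreata and hybridised to 1 single-colour Agilent array.

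Glucose enters a rodent beta cell mainly through GLUT2, the low-affinity transporter made from Slc2a2, and is then phosphorylated to glucose 6-phosphate, the step that sets how fast the cell burns sugar and secretes insulin. Hexokinases of high affinity, such as Hk1, are normally low in mature beta cells, and G6pc2 opposes phosphorylation by turning glucose 6-phosphate back into glucose. Nkx6-1 is a homeodomain transcription factor that mature beta cells need.

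The comparison asks how these genes stood in islets after deletion of Nkx6-1. Slc2a2 was 4.02-fold lower in mutant islets and was the member that passed the test, with an adjusted p of 0.0415 (limma, Benjamini-Hochberg over all genes tested). G6pc2 was 1.76-fold lower and Slc2a1 1.25-fold lower on the means, with every mutant array below every control array, but neither passed. Gckr lay on every mutant array above every control array, at a signal near background, and did not pass. G6pc3, Slc2a3 and the hexokinases had overlapping groups.

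A few sequences are shown for the members with the largest differences and for the gene whose probes differ. One is the stretch of 250 bases before the transcription start of Slc2a2 (RefSeq, GRCm38.p6, chr3:28697653-28697902, plus strand), the member that changed. The capitals mark the core ATTA (TAAT on the other strand) that homeodomain proteins commonly bind.
Slc2a2 upstream: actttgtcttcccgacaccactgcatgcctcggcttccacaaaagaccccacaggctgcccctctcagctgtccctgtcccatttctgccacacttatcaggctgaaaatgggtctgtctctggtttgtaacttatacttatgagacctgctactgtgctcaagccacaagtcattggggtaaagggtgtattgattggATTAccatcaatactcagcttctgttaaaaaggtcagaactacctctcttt
Next is the 3′ end (last 30 of 60 bases) of the probes of Slc2a2 and G6pc2 and of both Hk1 probes, which show what each reading below detected. Capitals are not used in these.
Slc2a2 probe: atgcttgagttgttcttagctgtagagctc
G6pc2 probe: gtctgtcaaaaatgaggataatcaaattct
Hk1 brighter probe: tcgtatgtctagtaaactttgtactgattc
Hk1 dimmer probe: ttcctcctgtctgaagacggcagcggcaag
The upstream stretch of Slc2a2 held 1 such core, which began 51 bases before the start. RefSeq windows were matched for 8 members by symbol (10 windows), Slc2a3 being the member not matched, and 6 of the 10 held the core, against 54.9% of all 32851 windows. The longer string TTAATT, searched on both strands (its other strand reads AATTAA) in the full windows of 300 bases, was in 0 of the 10 member windows and in 11.3% of all windows. Both searches are descriptions of letters in these windows, and binding was not measured.

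The arrays were compared on the normalized log2 signal, which is the log2 of the background-corrected spot signal minus the 75th percentile of the array, so 0 is a fairly bright probe. Correlations between arrays over the genes tested ranged from 0.979 to 0.995 within a group and from 0.974 to 0.984 between groups. The share of probes well above background was 66.8%, 63.9% and 74.4% on mutant arrays A, B and C, against 73.4%, 75.6% and 76.3% on control arrays A, B and C, and the scanner software marked mutant A for evaluation. Slide 1 held mutants B and C and control A, and slide 2, with its own scan time, held mutant A and controls B and C, so a difference could be taken within each slide. All 6 beta cell markers that are not members were well above background on every array, as were all 16 acinar markers. The single Nkx6-1 probe, at chr5:102088319-102088378 (mm9, minus strand), read 4.32, 4.06 and 4.45 in mutants A, B and C and 4.79, 4.85 and 4.64 in controls A, B and C. Its difference of -0.48 (SE 0.14, adjusted p = 0.131, limma) did not pass, and whether this probe lies in the deleted part of the gene was not settled here.

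Of the 3 member transporters, Slc2a2 had the largest difference. Its probe, at chr3:28627016-28627075 (mm9, plus strand), read 3.75, 2.79 and 2.60 in mutants A, B and C and 4.79, 5.21 and 5.17 in controls A, B and C on the normalized log2 scale. All 3 mutant arrays lay below all 3 control arrays, mutant A being the highest of the mutants and control A the lowest of the controls. The means were 3.05 ± 0.62 in mutants and 5.05 ± 0.23 in controls (SD, n = 3 each), a difference of -2.01 (SE 0.32, 95% interval -2.79 to -1.22). Of the 22775 genes tested, 43 had a lower difference than Slc2a2 (0.189%), and the median difference over all of them was -0.03. The call was made for 1 of 9 members, against 2.53% of all genes in either direction and 1.12% called lower and 1.41% called higher.

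The same drop was seen in the spot signals before scaling between arrays. The background-corrected intensity of Slc2a2 was 32460.2, 12783.8 and 9817.0 in mutants A, B and C, and 53056.6, 91539.7 and 93252.2 in controls A, B and C. The values that the authors had equalized between arrays were 30398.7, 13361.2 and 12163.1 in the mutants, against 58225.3, 83088.7 and 77716.3 in the controls. Mutants B and C were thus the lowest on both scales, mutant A stood between them and the controls, and no pixel of the spot was saturated. In bulk islets, fewer beta cells and less Slc2a2 RNA per beta cell cannot be told apart.

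The Slc2a2 difference was negative on both slides. Within slide 1 it was -2.09 and within slide 2 it was -1.43. With slide as a block in the fit it was -1.76 (adjusted p = 0.0252, limma). The difference was negative under all 21 other settings, between -2.46 and -1.76, and it passed the test in 12 of them. Among others, it missed the threshold under quantile normalization (adjusted p = 0.0502, limma) and with no filter on dim probes (0.0629). It also missed when any array other than mutant A was left out (0.0638 to 0.166), so the call lay close to the threshold. Some of the 12 passes add little. Slc2a2 had 1 probe with 0 outlier flags, so the settings on probe choice and outlier spots repeated the -2.01. The looser threshold of 0.1 was applied to the same fit, so that pass was fixed in advance.

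**Figure D1:**
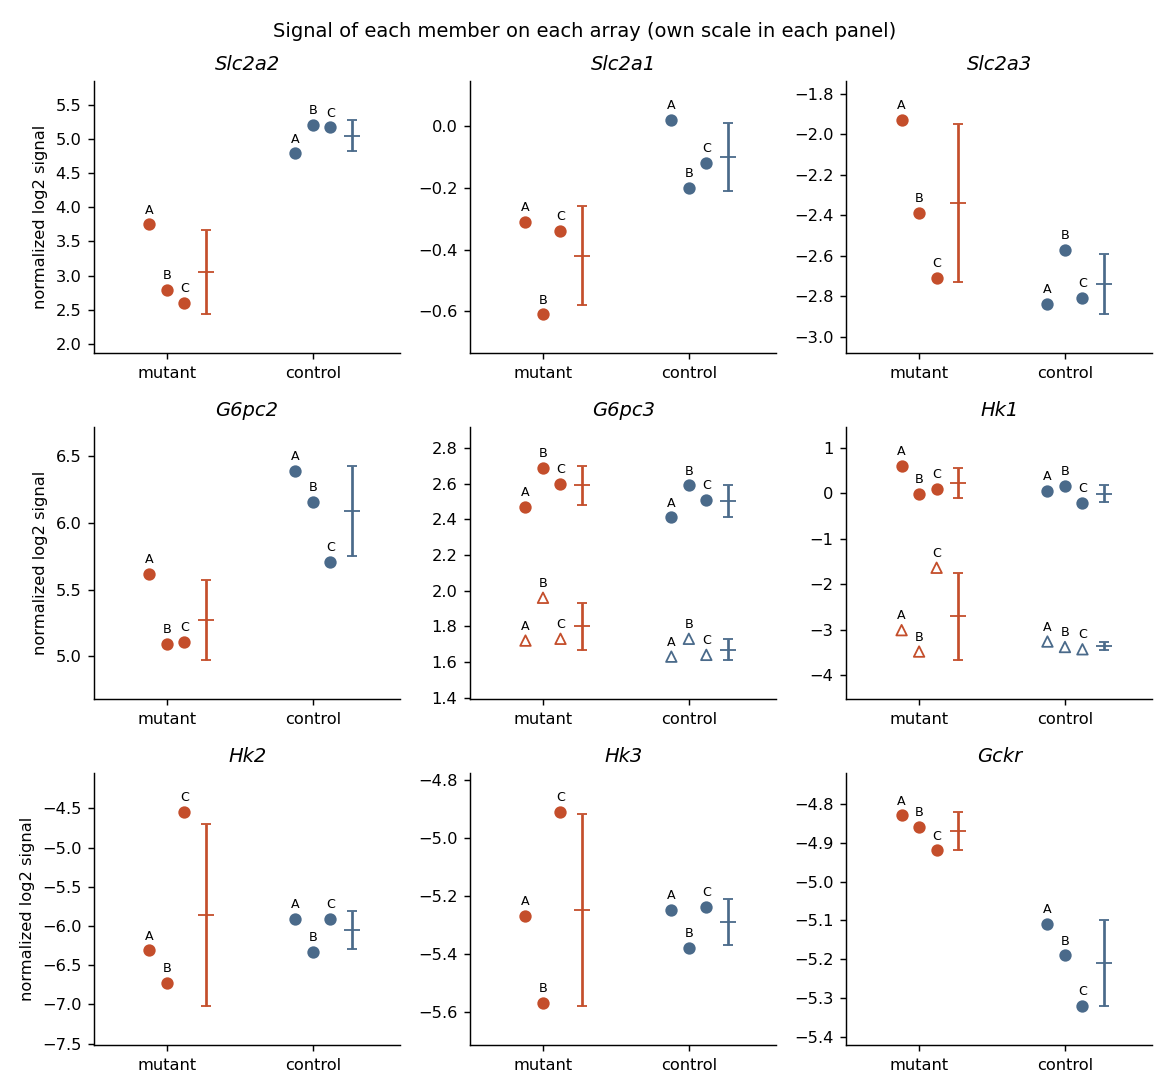
Normalized log2 signal of each member on each array (y axis, own scale in each panel), mutant arrays left of control arrays. Filled circles are the brighter or single probe, open triangles the dimmer probe, letters name the arrays, and the bars give mean and SD (n = 3). For Slc2a2 the mutant arrays sit between 2.60 and 3.75, all below the control arrays at 4.79 to 5.21, while Hk2 is spread widely, from -6.73 to -4.54, among mutant arrays alone.

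Slc2a1, which encodes GLUT1, the transporter of most tissues, had a probe at chr4:118809864-118809923 (mm9, plus strand). It read -0.31, -0.61 and -0.34 in mutants A, B and C and 0.02, -0.20 and -0.12 in controls A, B and C. The mutant arrays were all lower, but by less than the gap seen for Slc2a2. The difference of -0.32 (SE 0.13, 95% interval -0.63 to -0.01) had an adjusted p of 0.238 (limma) and was -0.50 within slide 1 and -0.15 within slide 2.

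Slc2a3, the high-affinity transporter GLUT3 best known from neurons, had a probe at chr6:122678075-122678134 (mm9, minus strand). It read -1.93, -2.39 and -2.71 in mutants A, B and C and -2.84, -2.57 and -2.81 in controls A, B and C. Mutants A and B were above every control array, and mutant C lay among the controls. The difference of 0.40 (SE 0.21, 95% interval -0.13 to 0.92, adjusted p = 0.361, limma) did not pass.

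G6pc2, the islet glucose-6-phosphatase catalytic subunit, was next to Slc2a2 in size among the members. Its probe, at chr2:69065947-69066006 (mm9, plus strand), read 5.62, 5.09 and 5.11 in mutants A, B and C and 6.39, 6.16 and 5.71 in controls A, B and C. The groups did not overlap, although mutant A lay only just below control C. The means were 5.27 ± 0.30 in mutants and 6.09 ± 0.34 in controls (SD, n = 3 each), a difference of -0.81 (SE 0.23, 95% interval -1.38 to -0.25) with an adjusted p of 0.130 (limma). It was -1.29 within slide 1 and -0.32 within slide 2, and -0.80 with slide as a block. The unscaled corrected intensity was 118238.0, 62743.7 and 55908.3 in mutants A, B and C, against 160437.2, 177062.9 and 136150.5 in controls A, B and C. G6pc2 did not pass under any of the 21 other settings, where its difference ranged from -1.0 to -0.66.

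G6pc3, the glucose-6-phosphatase catalytic subunit found in most tissues, had a pair of probes on chromosome 11 (mm9, plus strand). The brighter, at chr11:102055338-102055395, read 2.47, 2.69 and 2.60 in mutants A, B and C and 2.41, 2.59 and 2.51 in controls A, B and C. The groups overlapped, and the difference of 0.08 (SE 0.11, 95% interval -0.19 to 0.35, adjusted p = 0.706, limma) had a narrower interval than those of Slc2a2 and G6pc2. The other probe, at chr11:102055237-102055296, differed by 0.14 (SE 0.11), also with overlapping groups. Of the phosphatase pair, the islet gene thus had its mutant arrays lower and the widely expressed gene did not, though the difference between the genes was not tested.

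Hk1, the hexokinase of most tissues, was measured at different places by 2 probes that ranked the mutant arrays differently. The brighter, at chr10:61731856-61731915 (mm9, minus strand), read 0.60, -0.01 and 0.10 in mutants A, B and C and 0.04, 0.15 and -0.22 in controls A, B and C. Mutant A was the highest array and the groups overlapped, with a difference of 0.24 (SE 0.20, 95% interval -0.24 to 0.72, adjusted p = 0.531, limma). The dimmer probe, at chr10:61732717-61732776, read -3.01, -3.48 and -1.64 in mutants A, B and C and -3.26, -3.38 and -3.43 in controls A, B and C. Here mutant C was the high array, and the SD was 0.96 among mutants against 0.09 among controls. Its difference of 0.64 (SE 0.46, 95% interval -0.47 to 1.75) did not pass either.

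Hk2, the hexokinase known from muscle and fat, was near background. Its probe, at chr6:82675056-82675115 (mm9, minus strand), read -6.31, -6.73 and -4.54 in mutants A, B and C and -5.91, -6.33 and -5.91 in controls A, B and C. It was well above background on mutant C alone of the mutants and on all 3 controls, so it entered the test through the controls. The lowest intensity with this flag was 40.0 on mutant A and 34.2 on mutant B, against 14.1 to 16.7 on controls. Corrected Hk2 intensity was 30.3 on mutant A and 17.4 on mutant B, against 32.0, 30.8 and 43.1 on controls A, B and C. The flags alone therefore do not show a lower Hk2 level in mutants. The difference of 0.19 (SE 0.56, 95% interval -1.18 to 1.56, adjusted p = 0.872, limma) left a wide range. It was -0.47 without mutant C, which leaves the mutant arrays that were not well above background, and 1.51 (adjusted p = 0.112, limma) with those arrays, mutants A and B, left out.

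Hk3, the hexokinase known from blood cells, also entered the test through the controls, since mutant B was not well above background. Its probe, at chr13:55107900-55107959 (mm9, minus strand), read -5.27, -5.57 and -4.91 in mutants A, B and C and -5.25, -5.38 and -5.24 in controls A, B and C. The groups overlapped, with a difference of 0.04 (SE 0.18, 95% interval -0.41 to 0.48, adjusted p = 0.924, limma). On the normalized scale, mutant C was the highest array for Hk2, for Hk3 and for the dimmer Hk1 probe. Before scaling this did not hold for Hk3. Its corrected intensity was 62.2, 38.8 and 54.0 in mutants A, B and C and 50.5, 59.5 and 68.8 in controls A, B and C.

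Gckr, whose protein holds back glucose phosphorylation in liver, had a probe at chr5:31629583-31629642 (mm9, plus strand). It read -4.83, -4.86 and -4.92 in mutants A, B and C and -5.11, -5.19 and -5.32 in controls A, B and C. Each group was tight and the mutants were all higher, by 0.34 (SE 0.10, 95% interval 0.09 to 0.59, adjusted p = 0.15, limma). The corrected intensities were 84.9, 63.4 and 53.7 in mutants A, B and C and 55.6, 68.0 and 64.8 in controls A, B and C. They overlapped before scaling and were not far above the local background of 25 to 50. Unlike Hk2 and Hk3, the Gckr probe was flagged as well above background on every array.

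Across the 9 members, 4 had groups that did not overlap, against 26.3% of all genes tested, and 3 of these 4 had every mutant array below every control array, against 14.0%, and the other had every mutant array above, against 12.3%. An unadjusted p under 0.05 was found for 4 of 9 members, against 20.2% of all genes. The median difference over the members was 0.08, against -0.03 over all genes. With slide as a block 1 of 9 members passed, again Slc2a2, against 2.94% of all genes.

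**Figure D2:**
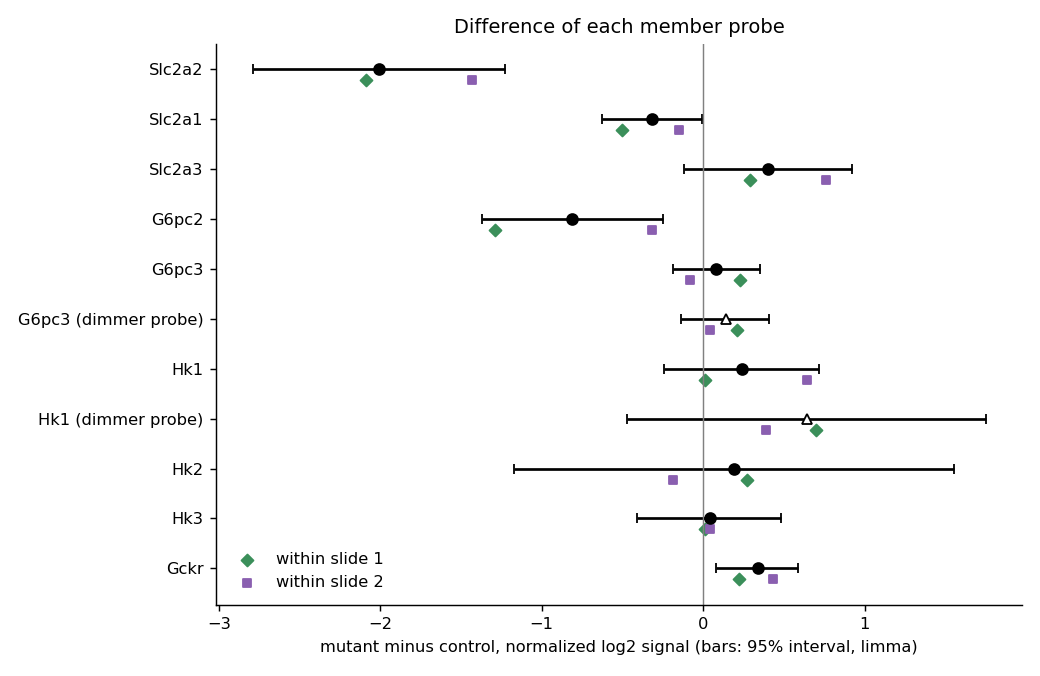
Mutant minus control difference of each member probe in normalized log2 signal (x axis). Black symbols with bars are the limma difference and its 95% interval over 3 mutant and 3 control arrays, open triangles are dimmer probes, and the diamonds and squares below give the difference within slide 1 and within slide 2. Slc2a2 stands apart at -2.01, G6pc2 at -0.81 has unlike values on the slides (-1.29 and -0.32), and the widest interval is that of Hk2 (-1.18 to 1.56).

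Markers of other cells also differed between arrays. The mean of the 16 acinar markers, set against the control mean, was -0.85, 0.93 and 1.87 on mutants A, B and C, and -0.30, -0.06 and 0.36 on controls A, B and C. Their summed linear level, in units of the array's 75th percentile, ran from 927.9 to 4375.6 in mutants and from 1386.7 to 1886.5 in controls, and 0 of the 16 were called. On the normalized scale mutant C, the array highest in acinar markers, was highest for Hk2, Hk3 and the dimmer Hk1 probe and lowest for Slc2a2. The Hk3 rank did not hold before scaling. Mutant A, the lowest in acinar markers, was the mutant array with the highest Slc2a2 and G6pc2. Mutant A was also the only mutant on slide 2. Among controls, C was highest in acinar markers and lowest for G6pc2 (5.71), but also lowest for the dimmer Hk1 probe (-3.43). Slc2a2 was lowest in control A (4.79). Hk3 read -5.24 in control C and -5.25 in control A, and Hk2 read -5.91 in both. The part of acinar RNA in the member values was not tested.

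Of the 6 beta cell markers that are not members, 3 had every mutant array below every control array, against 14.0% of all genes tested. Of these 3, 2 passed, and 1.12% of all genes tested were called lower. Ucn3, a peptide hormone of mature beta cells, differed by -1.24 (adjusted p = 0.0236, limma), and Slc30a8, the zinc transporter of insulin granules, by -0.96 (adjusted p = 0.0282). Mafa, a transcription factor of mature beta cells, differed by -0.77 and did not pass (adjusted p = 0.0594). Ins1, Ins2 and Iapp, the hormone genes of the beta cell, differed by 0.26, 0.25 and 0.26. Their groups overlapped, with adjusted p-values of 0.481 to 0.702 (limma). Ins1 read 8.28 on mutant C, the array with the lowest 75th percentile of intensity (1622.2). It read 7.72 on control C, the array with the highest (2597.0). Saturation of these very bright spots was not examined here, so a change in the hormone genes could be hidden. With slide as a block, Ins1, Ins2 and Iapp differed by 0.12, -0.01 and 0.01. Ucn3, Slc30a8 and Mafa then differed by -1.16, -0.91 and -0.70. The mean of the 6 markers, set against the control mean, was -0.49, -0.37 and -0.24 on mutants A, B and C, and 0.18, -0.11 and -0.07 on controls A, B and C, so every mutant array was lower. The summed linear level of the 6 was 603.0 to 1028.9 in mutants and 651.4 to 924.6 in controls. Ins1, Ins2 and Iapp give most of this sum, so the limit on the hormone genes applies to it. Alpha cell markers averaged 0.12, 0.38 and 0.44 relative to the control mean on mutants A, B and C and 0.23, 0.02 and -0.25 on controls A, B and C. These averages overlapped, and 0 of 7 markers were called. Of the 7, 3 had groups that did not overlap, against 26.3% of all genes tested. Irx1 (0.80) and Irx2 (0.59) had every mutant array higher, and Slc7a2 (-0.72) had every mutant array lower. Delta cell markers averaged 0.25, 0.53 and 0.75 relative to the control mean on mutants A, B and C and 0.30, 0.10 and -0.40 on controls A, B and C. These averages overlapped as well. Of the 5 delta markers, 0 were called, and 1 had groups that did not overlap, with every mutant array higher. The part of alpha and delta cells in the member values was not tested.

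Blood cells also carry glucose transporters and hexokinases. Erythroid markers were at 0.88, 0.23 and -0.40 relative to the control mean on mutants A, B and C, and at 0.02, 0.11 and -0.13 on controls A, B and C. The order was that of Slc2a3 on the mutant arrays but not on the control arrays. Summed linear levels were 30.4 to 64.3 in mutants and 27.2 to 34.4 in controls, and 0 of 6 were called. The 10 leukocyte and macrophage markers averaged 0.03, -0.28 and -0.24 on mutants A, B and C and 0.40, -0.23 and -0.17 on controls A, B and C, with summed levels of 27.5 to 32.6 in mutants and 37.4 to 44.8 in controls and 0 called. The part of blood cells in the member values was not tested.

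The 5 genes whose centred profile over the 6 arrays was closest to Slc2a2, by root mean square difference, were Dlgap1 (0.11), Ltbp2 (0.22), Atp4a (0.24), Cnnm1 (0.25) and Gm2430 (0.26). Dlgap1, which encodes a scaffold protein of synapses, read -3.96, -4.57 and -4.93 in mutants A, B and C and -2.80, -2.37 and -2.52 in controls A, B and C. Its mutant A was the highest mutant and its control A the lowest control, an order shared with Slc2a2 because of how the gene was chosen.

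Around the members, 99 of 101 listed genes of hexose transport, glucose 6-phosphate, lower glycolysis, glycogen and their regulators were tested, and 5 passed higher and 1 lower in mutants (6.06%, against 2.53% of all genes). Among the other hexose transporters, 1 of 13 tested genes passed. It was Slc5a10, a sodium-coupled sugar carrier known from kidney, at 0.21, 1.06 and 0.40 in mutants A, B and C and -2.91, -2.22 and -2.25 in controls A, B and C. Every mutant array was higher, by 3.01 (SE 0.29, adjusted p = 0.0151, limma).

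Of the 17 other genes of glucose 6-phosphate, 0 passed in limma. The largest differences were those of Hkdc1, a hexokinase-like gene, at -0.63 (SE 0.44, adjusted p = 0.462), and of G6pd2, a glucose-6-phosphate dehydrogenase, at -0.46 (SE 0.13, adjusted p = 0.134). The groups overlapped for Hkdc1 and did not for G6pd2.

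Lower glycolysis and lactate held 3 of the 6 calls among 27 tested genes. Pfkfb3, whose product raises the activator of phosphofructokinase, was higher by 2.85 (SE 0.27, adjusted p = 0.0151, limma), at 0.69 to 1.46 in mutants and -2.09 to -1.33 in controls. Fbp2, a fructose-bisphosphatase known from muscle, was higher by 1.95 (SE 0.31, adjusted p = 0.0415, and 0.0628 with slide as a block). It read -4.23 to -3.53 in mutants and -6.33 to -5.33 in controls, and was well above background on all 3 arrays of each group. The controls were nevertheless dim, with a mean of -5.91 against -6.05 for Hk2, so the size of the difference is less certain. Slc16a3, a lactate exporter, fell by 0.69 (SE 0.11, adjusted p = 0.0437), with -1.57 to -1.29 in mutants and -0.81 to -0.71 in controls.

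Of the 18 glycogen genes, 0 passed in limma. The largest differences were 1.31 for Ppp1r3c (SE 0.29, adjusted p = 0.0838), which targets a phosphatase to glycogen, and 0.79 for Gys2 (SE 0.34, adjusted p = 0.266), the liver glycogen synthase. Of 25 regulators, 2 passed. Txnip, a gene induced by glucose, was at 5.24, 5.33 and 5.0 in mutants A, B and C and at 2.73, 2.86 and 3.04 in controls A, B and C, higher by 2.31 (SE 0.14, adjusted p = 0.00601, limma). Rfx6, an islet transcription factor, was higher by 0.75 (SE 0.11, adjusted p = 0.0335).

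**Figure D3:**
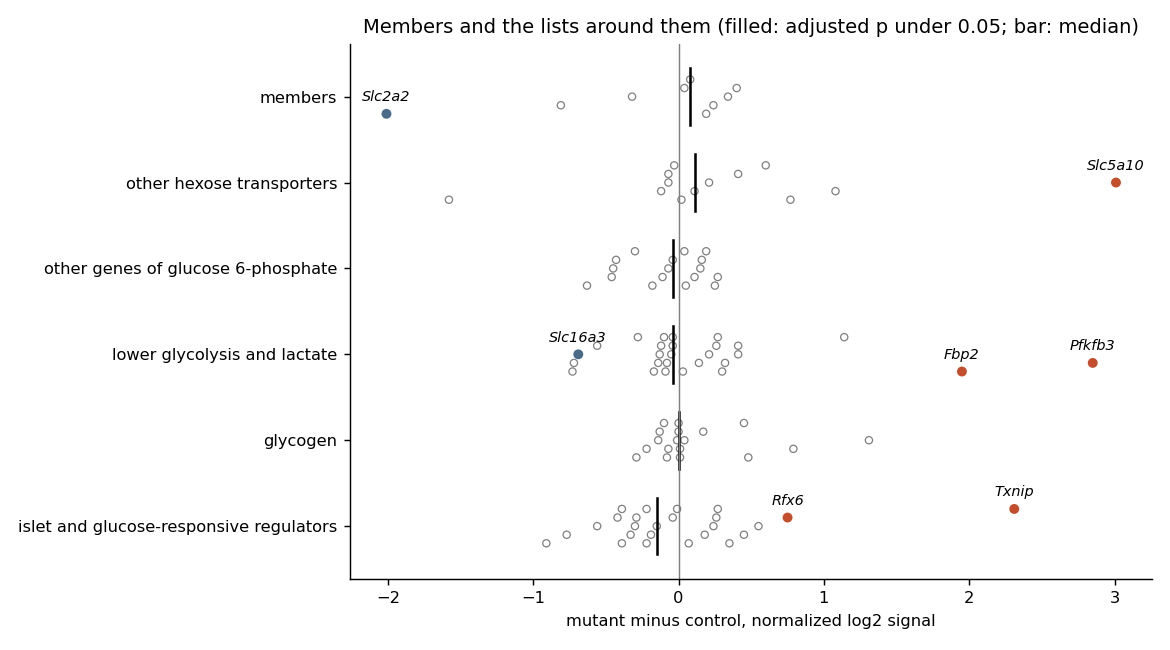
Mutant minus control difference in normalized log2 signal (x axis) of the 9 members and of the 99 tested genes around them, by list. Filled points passed at an adjusted p under 0.05 (limma), open points did not, and the vertical bar is the list's median. Slc2a2 and Slc16a3 are the filled points left of 0, and Slc5a10 at 3.01 is the farthest to the right.

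**Figure D4:**
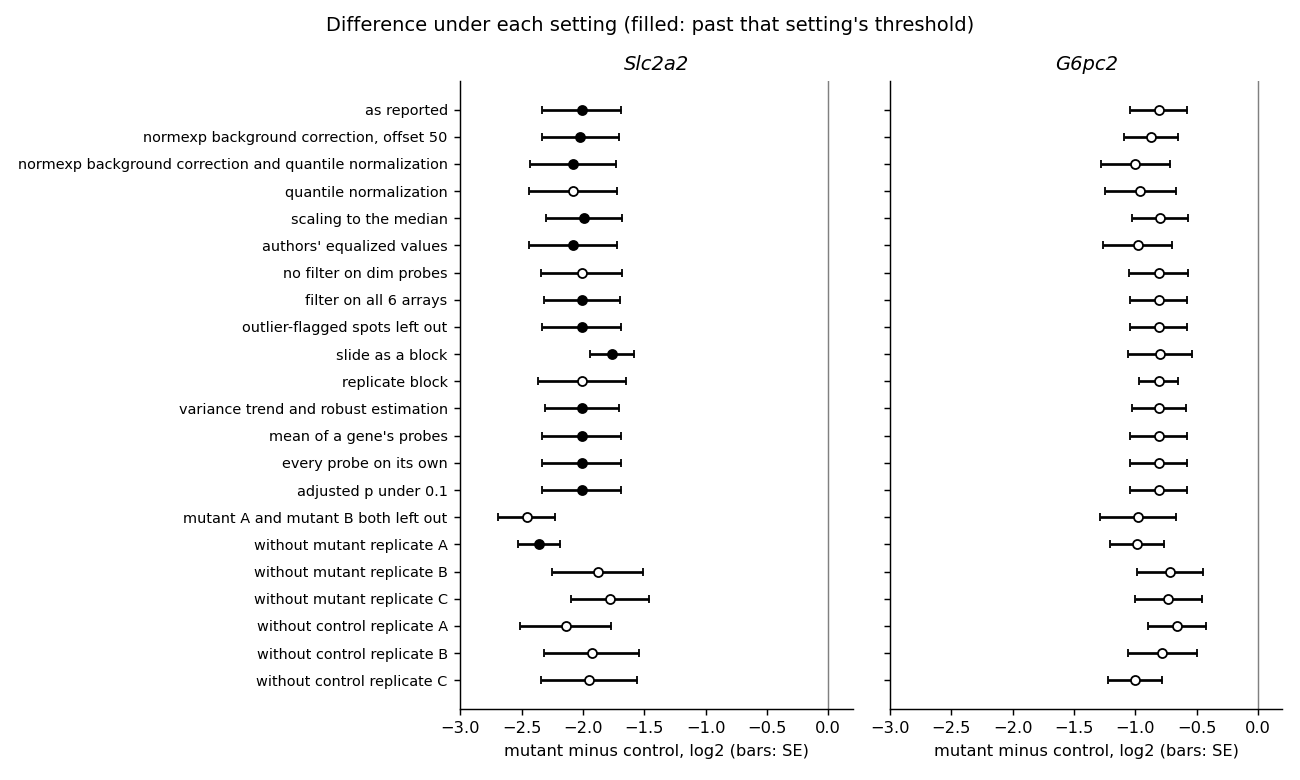
Mutant minus control difference of Slc2a2 (left) and G6pc2 (right) with its SE, as reported and under 21 other settings. Filled points passed the threshold of their setting. All differences lie left of 0, between -2.46 and -1.76 for Slc2a2, which passed in 12 of the 21, and between -1.0 and -0.66 for G6pc2, which passed in none of them. Settings on probe choice, outlier spots and the threshold left the difference of both genes unchanged.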

How the data were processed

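RNA of 6 islet samples (150 ng each, labelled with Cy3) was measured on single-colour arrays of 60-base probes. Per the file headers, the authors' scanner files (Agilent Feature Extraction 10.7.3.1, per the submitters' processing notes) hold spot intensities that were corrected for background and for spatial trends but not scaled from array to array. Other values in the deposited files are flags for saturated, uneven and dim spots. A deposited table of linear intensities, equalized between arrays by a method not given in the sources used here, served as an alternative.

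The log2 intensity minus the 75th percentile of its array was compared with limma 3.58.1 (R 4.3.3, reading with version 1.17.8 of data.table; linear model, empirical Bayes, two-sided). A probe was tested if all arrays of a group read it well above background, and a gene was taken at its brightest such probe. Calls were made at a false discovery rate (Benjamini-Hochberg) of 0.05 over 22775 gene names, and folds compare geometric means. The samples were separate pools of mice, and their number limits the precision. Letters A to C have no stated meaning and were not used as pairs.

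Members, lists and the naming rule were chosen with earlier results of these data known. The rule names all members, Nkx6-1, the called genes of each pathway list (otherwise the 2 largest differences) and the 5 genes closest to Slc2a2. Ucn3, Slc30a8, Mafa, Ins1, Ins2 and Iapp were named from the beta cell list outside that rule, and the 4-letter core was searched after the longer string. Of the 12 marker lists computed, the acinar, beta, alpha, delta, erythroid and leukocyte lists are printed. Of the pathway lists, 1 gene is not reported here and is in no count of the lists. Alternatives were other background corrections, scalings, filters and probe rules, slide or letter as a block, another threshold and arrays left out. Promoter sequences are from RefSeq (GRCm38.p6), and mm9 positions of probes were read from the array files.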

Additional observations from a re-analysis of the deposited data

How the results depend on the processing

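Every setting named here was chosen with earlier results of these data known, and quantities are log2 differences, mutant minus control, or counts of calls. Slc2a2 lost its call under quantile normalization (-2.08, adjusted p = 0.0502, limma), with no filter on dim probes (-2.01, 0.0629), with a block on the sample letters (-2.01, 0.197) and with mutants A and B both left out (-2.46, 0.0709, the lone mutant array being assumed to vary like the controls), so the count of members called was 0 there and 1 under the other settings that kept all arrays. With single arrays left out the members called ran from 0 to 1, and Slc2a2 kept the call without mutant A alone (adjusted p = 0.0210). The listed genes around the members gave 6 calls, against 3 with no filter, 0 with the replicate block, 10 with a variance trend and robust estimation, 13 at an adjusted p under 0.1, 0 without mutants A and B, and 0 to 4 with single arrays left out. Over all genes the 576 calls (320 higher and 256 lower) became 1514 at an adjusted p under 0.1, 0 with the replicate block (3163 at an unadjusted p under 0.05), 0 without mutants A and B (3864 at an unadjusted p under 0.05), and 13 to 418 with single arrays left out. With no filter 314 were higher and 99 lower. The sign turned for Hk2 without mutant C (-0.47, against up to 0.62 with another single array left out and 1.51 without mutants A and B) and for Hk3 under normexp with quantile normalization (-0.05), without mutant C (-0.13) and without control B (-0.01, against up to 0.20 with another single array left out and 0.38 without mutants A and B). The other 7 members kept their sign under all 21 settings, and Nkx6-1 was lower under all 21 (-0.60 to -0.31) without a call. The letters gave no pairing: deviations from the group means of samples with the same letter correlated at -0.23, -0.19 and -0.03, and such samples lay on different slides. The cause of the lost calls was not tested. Members near background (Hk2, Hk3, Gckr) are limited by signal over background.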
